A study of Mus musculus with 4 samples.

Results

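The cells described here are IL7Ra+ leukocytes of mouse fetal liver at embryonic days E13.5 and E14.5, compared between these stages. They were chosen as every barcode of the E13.5 and E14.5 fetal liver libraries that had 500 or more detected genes and no more than 10% of unique molecular identifiers (UMIs, each standing for 1 captured transcript) in mitochondrial genes. This kept 10641 cells at E13.5 and 11702 at E14.5, or 22343 of the 31153 cells kept by the same rule over all 4 libraries of the study. The embryos were C57BL/6J, and the labels name no transgene, deletion or treatment for either group. Leukocytes were enriched on CD45 magnetic beads, and live cells positive for CD45 and the IL-7 receptor alpha chain but negative for the macrophage marker F4/80 were sorted. Liver cells went into version 3 of the Chromium 3' kit, whereas cells of the embryonic periphery, the other tissue of the study, went into version 2. The study set out to follow the origin of lymphoid tissue inducer (LTi) cells, the innate lymphocytes that start lymph node formation. Each stage was 1 library, and the labels do not say how many embryos went into it or of which sex they were. All values below therefore compare 2 libraries, no significance test was possible, and stage, litter and sequencing run cannot be told apart.

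The fetal liver is the main site of blood formation at these stages. Multipotent progenitors there carry Cd34, Kit and Flt3 and give rise to lymphoid progenitors, a part of which bear the IL-7 receptor on their surface. In cells that enter the B lineage, the transcription factors Ebf1 and Pax5 switch on the signalling chains Cd79a and Cd79b and the surrogate light chain made of Igll1 and Vpreb proteins. These pair with an immunoglobulin heavy chain in the pre-B cell receptor. Id2, an inhibitor of E proteins, and Tox mark the alternative path to innate lymphoid cells.

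The liver files held 22873 barcodes with 212034840 UMIs at E13.5 and 208229937 at E14.5, and 29 barcodes were shared between them. Kept cells had a median of 18688 UMIs at E13.5 and 16231 at E14.5. Mitochondrial genes took 5.03 and 3.88% of their UMIs. Markers of cells outside the sort were low: none of 13 macrophage markers reached 10 CPM, a level that scales each library to the same total of UMIs, with a summed level of 8.89 and 14.4 CPM, and Adgre1, which encodes F4/80, stood at 2.14 and 3.98 CPM. Of 15 hepatocyte markers 3 reached 10 CPM, with a sum of 49.0 and 89.8 CPM, while albumin (Alb) stood at 0.028 and 0.24 CPM. Erythroid markers summed to 96.3 and 81.9 CPM, and endothelial and stromal markers to 55.2 and 48.7 CPM. The transcripts of the sort markers were present, with Il7r at 150.5 and 188.7 CPM and Ptprc, which encodes CD45, at 143 and 98.9 CPM.

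UMIs were summed over the kept cells of each library and compared as CPM. Genes of early B cells and of basophils were higher at E14.5, and genes of multipotent progenitors were lower. Of 7750 genes at 10 CPM or more in either library, 100 were at least 2-fold higher at E14.5 (1.29%) and 26 at least 2-fold lower (0.335%), 1.63% together, on a log2 scale after adding 5 CPM to both sides. That addition understates the folds of weakly detected genes. The median gene stood at -0.03 on this scale, and the middle 50% of genes between -0.14 and 0.08. The changes past 2-fold were thus few, and those upward outnumbered those downward.

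**Figure D1:**
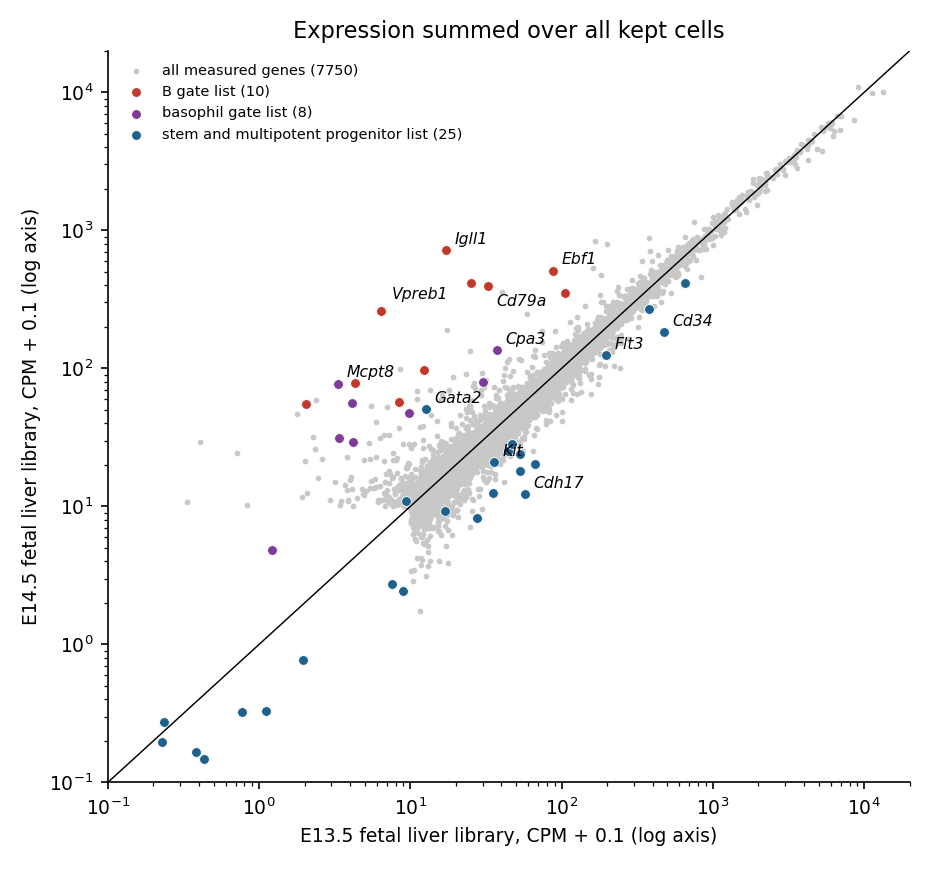
Level of each gene in the E13.5 library (x axis) and the E14.5 library (y axis), in CPM plus 0.1 on log axes, summed over all kept cells. Grey points are all 7750 measured genes, coloured points are every member of 3 gene lists whether measured or not, and the line marks equal levels. All 10 B gate genes and all 8 basophil gate genes lie above the line, and most of the measured stem and multipotent progenitor genes below it.

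Igll1, Vpreb1 and Vpreb3, which belong to the surrogate light chain or are related to it, had the 3 highest log2 folds on this scale. Igll1 (chromosome 16, 16860671 to 16863985 on GRCm38), which encodes its constant-like part, stood at 17.1 CPM (95% Poisson interval 16.5 to 17.7) at E13.5 and at 714 CPM (711 to 718) at E14.5, a log2 fold of 5.03. Vpreb1 (chromosome 16, 16868403 to 16870843), which encodes the variable-like part, stood at 6.34 CPM (6.01 to 6.69) and 259 CPM (257 to 261), a log2 fold of 4.54. Its near-identical copy Vpreb2 stood at 4.19 and 77.7 CPM (log2 fold 3.17), and how reads common to both copies were counted is not given in the sources used here. Vpreb3, a relative of these proteins in early B cells, stood at 25.02 and 415 CPM (3.81). These intervals cover counting error only and not the spread between libraries.

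The signalling and regulatory genes of the B lineage were higher as well. Cd79a stood at 32.5 CPM (31.8 to 33.3) and 398 CPM (395 to 400.4), a log2 fold of 3.42, and its partner Cd79b at 105 and 353 CPM (1.70). The adaptor Blnk, which couples the receptor to its kinases, stood at 12.1 and 96.5 CPM (2.57). Ebf1 was the regulator with the highest level, at 87.8 CPM (86.6 to 89.1) and 509.8 CPM (506.7 to 513), a log2 fold of 2.47. Pax5, which acts after Ebf1, stood at 8.32 and 56.6 CPM (2.21). Lef1 and Pou2af1, both transcriptional regulators of B cells, had log2 folds of 2.95 and 2.94. Over the B lineage list of 22 genes, all 21 measured members were higher, 18 of them past 2-fold, with a median log2 fold of 2.47. Some of the 21, such as Vpreb1, Vpreb2, Pax5, Lef1 and Pou2af1, passed the 10 CPM minimum through E14.5 alone and so had to be higher. The member that was not measured, Dntt, which encodes terminal transferase and is known to be scarce in fetal B cells, stood at 0.028 and 0.034 CPM.

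The share of cells with a UMI was compared next. For these shares every cell was thinned at random to 5000 UMIs, which left 10251 and 10933 cells and left out 390 and 769 shallower ones. Igll1 was detected in 2.29% of thinned cells at E13.5 and 43.3% at E14.5, or in 3.56 and 53.8% of unthinned kept cells. Positive cells held 5.14 and 8.51 Igll1 UMIs on average after thinning. Background was read in cells with 3 or more UMIs of 8 basophil genes, named below, which should lack Igll1: 4 of 328 such cells at E13.5 (1.22%, exact binomial interval 0.333 to 3.09) and 150 of 896 at E14.5 (16.7%, 14.4 to 19.3) held a UMI of it at the same thinned depth. The E13.5 share of all cells lay within that interval, which rests on 4 positive cells, so by share alone it is not told apart from background. At E14.5 the share of all cells lay above the interval. UMIs per positive cell were not compared with those of the basophil-gene cells. Barcodes that hold 2 cells were kept here and could add to the background. Ebf1 was detected in 21.3 and 59.2% of thinned cells (33.7 and 67.9% unthinned), against 3.96 and 13.8% of the basophil-gene cells. Cd79b was spread more widely, in 36.5 and 61.5% of thinned cells (73.3 and 81.4% unthinned) and in 21.6 and 29.4% of the basophil-gene cells.

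Cells were then divided by a B gate, set at 3 or more UMIs summed over 10 B lineage genes after thinning, among them Cd79a, Cd79b, Igll1, Vpreb1, Vpreb2, Vpreb3, Ebf1, Pax5 and Blnk. A gate is a range of this sum and not a cell type. The B gate held 13.7% of cells at E13.5 (exact binomial interval 13.02 to 14.4) and 56.8% at E14.5 (55.9 to 57.8). Many cells lay near its limit: 43.1% at E13.5 and 33.1% at E14.5 had 1 to 5 UMIs. The cells inside also differed in level, with a median of 5 UMIs of these genes at E13.5 and 26 at E14.5. Cells with 10 or more UMIs made up 4.25 and 42.9%. The share was higher at E14.5 under every gate limit and thinning depth tried, and its size depended on both. When cells needed 1000 genes and a mitochondrial share no higher than 5%, it was 7.63% at E13.5 and 56.3% at E14.5.

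**Figure D2:**
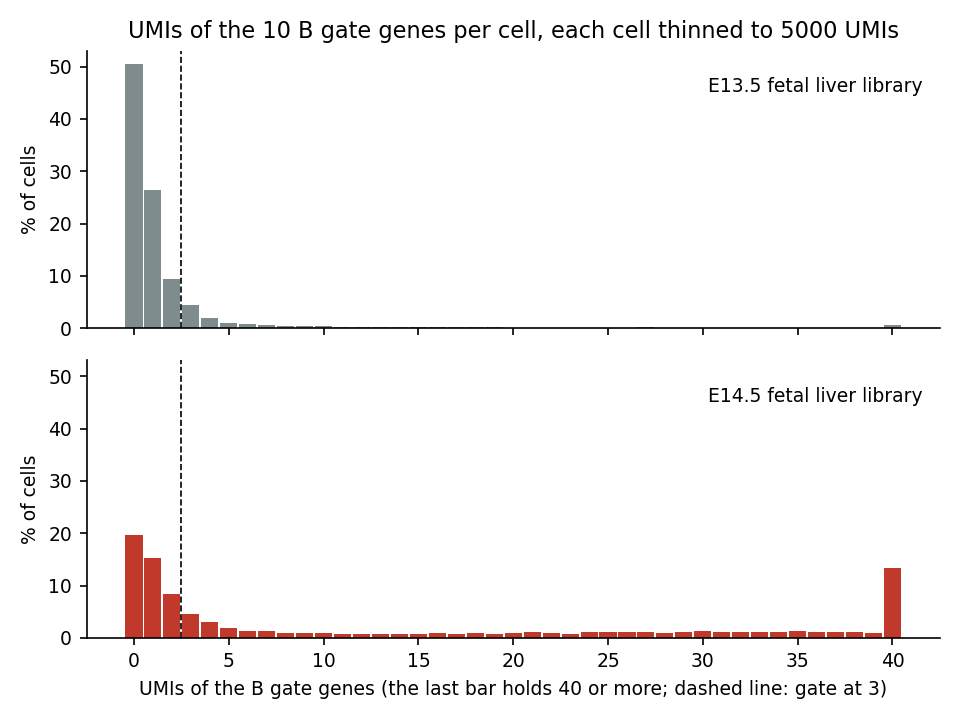
Percent of cells (y axis) by the number of UMIs of the 10 B gate genes in a cell thinned to 5000 UMIs (x axis), with E13.5 above and E14.5 below; the last bar holds 40 UMIs or more and the dashed line is the gate. Cells with 0 UMIs made up 50.5% at E13.5 and 19.6% at E14.5. At E14.5 the bars stand at 0.73% at 13 UMIs and higher again at 30 UMIs, at 1.30%. The last bar holds 0.595% at E13.5 and 13.4% at E14.5.

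Since these genes were higher together, the stretch before the start site of each was searched for 7 short motifs on both strands, in the 250 bases before the start as RefSeq annotates it on GRCm38.p6. An entry existed for 8 of the 10 B gate genes. The letters CAGGTG, an E box of the kind bound by E proteins, occurred in 5 of the 8 (Cd79a, Igll1, Vpreb1, Vpreb2 and Blnk), in 19.4% of all 27025 genes with an entry and in 16.5% of the measured genes. Among the genes at least 2-fold higher at E14.5 they occurred in 22 of 73 with an entry (30.1%). The palindrome of the EBF motif occurred in none of the 8 and in 0.914% of all genes, and its shorter core in 1 of the 8 and in 13.4% of all genes. The other motifs searched were CAGCTG (2 of 8), TGTGGT of RUNX factors (3 of 8) and GGAAGT of ETS factors (4 of 8), against 14.7, 15.9 and 22.2% of all genes. A match is a description of the sequence and not a measured binding site. The Igll1 stretch is shown because that gene had the highest log2 fold. It covers chr16:16863986-16864235 of GRCm38.p6, is written 5' to 3' on the minus strand that carries the gene, and has in capitals the E box, which lies on the other strand and starts 8 bases before the start site.
Igll1: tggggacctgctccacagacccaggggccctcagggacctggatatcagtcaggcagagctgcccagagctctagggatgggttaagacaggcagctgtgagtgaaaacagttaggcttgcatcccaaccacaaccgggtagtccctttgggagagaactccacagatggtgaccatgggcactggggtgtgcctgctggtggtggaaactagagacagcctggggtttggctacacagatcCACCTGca

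Genes of basophils and mast cells formed the other group that was higher at E14.5. Mcpt8, a protease of basophil granules, stood at 3.21 CPM (2.98 to 3.46) at E13.5 and 77.4 CPM (76.2 to 78.6) at E14.5, a log2 fold of 3.33. Prss34, another basophil protease, stood at 3.99 and 55.6 CPM (2.75), and Cpa3, the carboxypeptidase of mast cell and basophil granules, at 37.1 and 135 CPM (1.74). Ms4a2, the beta chain of the high-affinity IgE receptor, stood at 4.10 and 28.9 CPM (1.90). Its alpha chain Fcer1a stood at 1.12 and 4.72 CPM and did not reach 10 CPM in either library. Gata2, a transcription factor shared by these cells and by stem cells, stood at 12.7 and 50.3 CPM (1.65). Of the 20 genes on the mast cell and basophil list 13 were measured, and 12 of these were higher, 10 past 2-fold, with a median log2 fold of 1.65. Many of the 12, among them Mcpt8, Prss34, Ms4a2, Cd200r3 and Cyp11a1, passed the 10 CPM minimum through E14.5 alone. Those genes had to be higher, so the count and the median are partly set by the minimum.

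A basophil gate of 3 or more UMIs over 8 genes (Mcpt8, Prss34, Cpa3, Fcer1a, Ms4a2, Cd200r3, Cyp11a1 and Hdc) held 3.20% of cells at E13.5 (2.87 to 3.56) and 8.20% at E14.5 (7.69 to 8.73). The cells inside it carried a median of 8 and 37 UMIs of these genes. Mcpt8 was detected in 18.5% of cells inside this gate and outside the B gate at E13.5, and in 76.0% at E14.5. In cells inside the B gate, which should lack it, the Mcpt8 share was 0.071 and 2.45%. Prss34 was detected in 16.9 and 60.4% of the same basophil-gate cells, and Cpa3, at 81.8 and 97.1%, was frequent in them at both stages. All 3 are gate genes, so their shares inside are partly set by the selection. Cells inside both the B and the basophil gates numbered 9 at E13.5 and 126 at E14.5, which is 2.74 and 14.1% of the basophil-gate cells. Barcodes that hold 2 cells were not removed for these values. Without the barcodes that a doublet caller marked, the basophil gate held 3.03 and 6.98% of cells.

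All 8 basophil gate genes had a RefSeq entry, and 5 of them (Prss34, Cpa3, Fcer1a, Ms4a2 and Cd200r3) held the GATA motif AGATAA in the same 250 bases. It occurred in 11.4% of all genes and in 6.77% of the measured genes. Among the B gate genes it occurred in none of 8, and among all genes at least 2-fold higher at E14.5 in 9 of 73 (12.3%). Of the other motifs, either E box and the RUNX letters occurred in 3 of the 8 basophil gate genes each, the EBF core in 1, and the ETS letters and the EBF palindrome in none. Cd200r3 and Fcer1a, whose matches begin 39 and 92 bases before the start, are not shown. The stretches of the 3 other genes with the motif are given as examples, with the motif in capitals. They cover chr17:25298144-25298393 (Prss34, plus strand), chr3:20242182-20242431 (Cpa3, minus strand) and chr19:11623720-11623969 (Ms4a2, minus strand) of GRCm38.p6, and each is written 5' to 3' on the strand of its gene. The nearest match begins 31 bases before the start in Prss34, 46 in Cpa3 and 11 in Ms4a2, which holds 3 matches in all.
Prss34: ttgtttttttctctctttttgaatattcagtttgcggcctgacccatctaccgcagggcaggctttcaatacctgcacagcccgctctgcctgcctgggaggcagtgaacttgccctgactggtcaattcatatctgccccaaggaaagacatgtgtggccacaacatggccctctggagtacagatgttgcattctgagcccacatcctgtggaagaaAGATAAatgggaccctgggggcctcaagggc
Cpa3: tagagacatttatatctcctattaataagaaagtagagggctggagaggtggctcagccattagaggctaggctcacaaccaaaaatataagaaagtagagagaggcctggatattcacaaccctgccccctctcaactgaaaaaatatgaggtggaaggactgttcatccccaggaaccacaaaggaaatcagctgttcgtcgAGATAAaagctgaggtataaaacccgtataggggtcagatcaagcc
Ms4a2: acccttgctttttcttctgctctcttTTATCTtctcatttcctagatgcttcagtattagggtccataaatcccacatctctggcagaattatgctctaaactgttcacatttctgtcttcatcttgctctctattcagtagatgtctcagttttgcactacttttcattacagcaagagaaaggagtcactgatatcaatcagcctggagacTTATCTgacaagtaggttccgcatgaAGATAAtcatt

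Each change was split into the ratio of the share of positive cells and the ratio of UMIs per positive cell, both after thinning. Of the 100 genes at least 2-fold higher, 97 had at least 50 positive cells in both libraries, as the split requires, and in 90 of these the share was the larger part (92.8%). The share was the larger part in 6548 of all 7745 measured genes that could be split (84.5%), and against that background the count is no result about the higher genes. Their median log2 ratio was 1.63 for the share and 0.26 for the level. Of the 26 genes at least 2-fold lower, 25 could be split and the share was the larger part in all 25, with medians of -1.45 and -0.14. Over all measured genes, 10 had a level per positive cell more than 2-fold apart, and all 10 were higher at E14.5. Among them, Mcpt8 had a log2 level ratio of 1.37 and Prss34 of 1.14, together with share ratios of 3.56 and 3.20. Cd63, a granule membrane protein, had a level ratio of 1.23 with a share ratio of 0.08, and Ifitm1 a level ratio of 1.51 with a share ratio of -0.41. Both were detected in most basophil-gate cells, Cd63 in 78.1 and 94.5% of them and Ifitm1 in 61.1 and 93.0%, against 5.28 and 5.13% and 25.7 and 20.9% of cells inside the B gate.

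**Figure D3:**
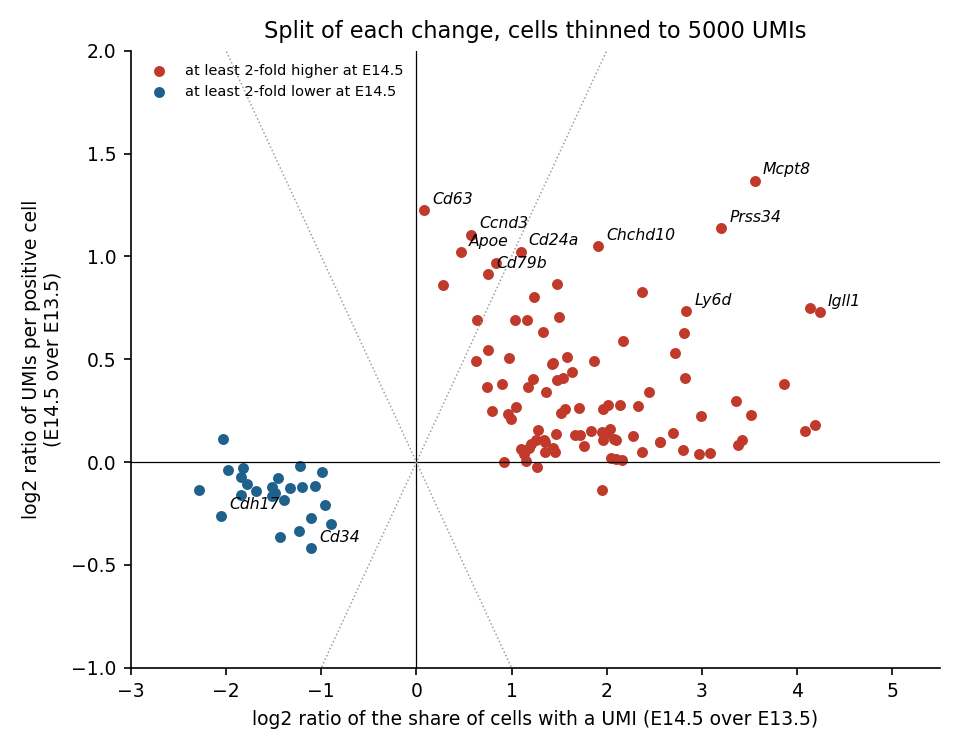
Log2 ratio of the share of cells with a UMI (x axis) and of UMIs per positive cell (y axis), E14.5 over E13.5, for the 97 higher and 25 lower genes that could be split, with cells thinned to 5000 UMIs; dotted lines mark equal size of both parts. Most genes lie to the left and right of the crossing dotted lines, where the share is the larger part, and Cd63 and Ccnd3 are among those above them.

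The genes lower at E14.5 included markers of early progenitors. Cd34, a surface sialomucin of stem and progenitor cells, stood at 477 CPM (475 to 480.0) at E13.5 and 182 CPM (180.2 to 184) at E14.5, a log2 fold of -1.37. It was detected in 76.4 and 35.6% of thinned cells (89.1 and 48.9% unthinned). Cdh17, which encodes a cadherin, had the lowest fold, with 57.4 CPM (56.4 to 58.5) and 12.2 CPM (11.8 to 12.7), a log2 fold of -1.86. Ctla2a, a cysteine protease inhibitor, stood at 66.5 and 20.3 CPM (-1.50), and Mycn at 52.9 and 23.9 CPM (-1.002). The receptors Flt3, at 198 and 124 CPM, and Kit, at 35.5 and 20.7 CPM, had smaller folds of -0.65 and -0.66. Of 16 measured genes on the stem and multipotent progenitor list of 25, 14 were lower, 7 past 2-fold, with a median of -0.68, and Gata2 and Ly6a were higher. Genes of monocytes and dendritic cells were mixed. Csf1r, the receptor for the growth factor of monocytes, stood at 64.7 and 24.9 CPM (-1.22), and H2-Ab1, a class II presentation gene, at 7.56 and 21.5 CPM (1.08). Of 16 measured monocyte and dendritic cell genes 11 were lower, 3 of them past 2-fold, with a median of -0.28. Outside the B gate defined above 9 of 15 were higher, with a median of 0.09. With the basophil gate left out as well, 8 of 15 were lower, with a median of -0.18.

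CPM values share a fixed total, so a gene can move when the share of another cell type moves. The comparison was therefore repeated in the 8849 and 4720 cells outside the B gate, which like all gates takes in cells with 5000 UMIs or more. There 93 genes were at least 2-fold higher (1.20%) and 6 at least 2-fold lower (0.0774%), out of 7751. The 6 lower genes were all among the 26 of the whole population. Of the 100 higher genes, 32 were past 2-fold here too. Cd34 stood at 506 and 314 CPM outside the gate, a log2 fold of -0.68. Cdh17 stood at 59.4 and 19.2 CPM (-1.41), a fold still past the limit. The stem and multipotent progenitor list had 14 of 16 measured genes lower in these cells as well, with a median of -0.40. The direction of this list was thus the same with and without the B-gate cells, and its size was smaller without them.

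Fewer genes were past 2-fold once basophil-type cells were set aside. When the basophil gate was left out as well, a step chosen after the data had been seen, 8530 and 3950 cells remained, with 22 genes at least 2-fold higher (0.287%) and 3 lower (0.0392%) of 7661. The lower genes were Cdh17 (-1.43), the prostaglandin-degrading enzyme Hpgd (-1.05) and the cyclooxygenase Ptgs1 (-1.01). Apoe, a hepatocyte and macrophage gene that was detected in 54.5 and 89.4% of basophil-gate cells, stood at 18.2 and 18.9 CPM in the remaining cells, against 25.3 and 59.2 CPM in all. Cd63 stood at 38.7 and 32.9 CPM there. Ly6d, a surface marker of lymphoid progenitors set on the B path, kept a large difference outside both gates, at 12.3 and 184 CPM, a log2 fold of 3.45. Ly6d was not used for the gate. Igll1 stood at 0.399 and 13.6 CPM in these cells, which by the gate's construction carry at most 2 UMIs of the gate genes after thinning.

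**Figure D4:**
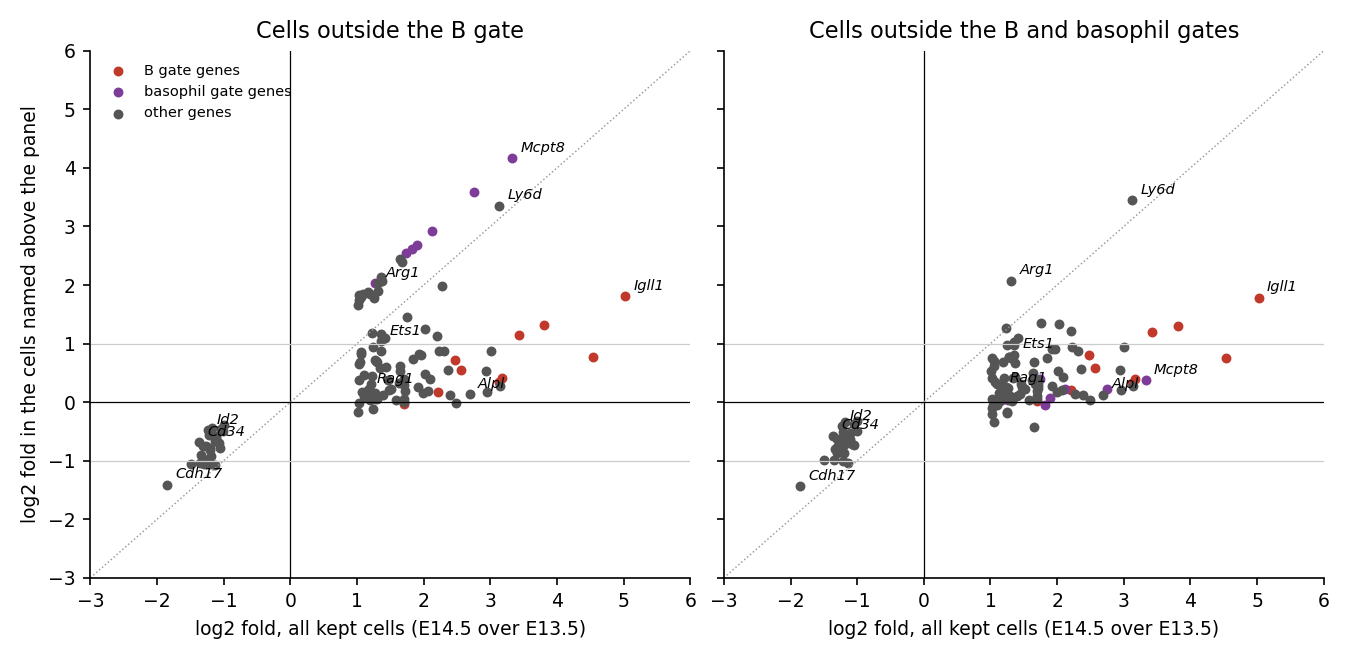
Log2 fold in all kept cells (x axis) and in cells outside the B gate (left) or outside the B and basophil gates (right; y axis), for the 126 genes past 2-fold in all kept cells; grey lines mark 2-fold and the dotted line equal folds. Basophil gate genes lie above the dotted line on the left. On the right they lie near 0, where by the gate's construction each cell holds fewer than 3 UMIs of them after thinning. Ly6d lies above the dotted line in both panels, and Cdh17 stays under the lower grey line in both.

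Counts over the innate lymphoid list differed between the whole population and the remaining cells, while Id2 and Tox were lower in both. Id2 stood at 244 CPM (242 to 246) at E13.5 and 101 CPM (99.5 to 102) at E14.5, a log2 fold of -1.23, but at 262 and 187 CPM outside the B gate (-0.48) and at 264 and 198 CPM outside both gates (-0.41). Tox stood at 101 and 41.6 CPM in all cells (-1.18) and at 108 and 84.4 CPM outside both gates (-0.33). Of 12 measured genes on the innate lymphoid list 9 were lower in all cells (median -0.28), whereas outside both gates 11 of 15 were higher (median 0.35). The median of all genes was -0.03 and 0.00 in these comparisons. The 2 counts cover different members: 5 of the 15 passed the 10 CPM minimum outside both gates through E14.5 alone and so had to be higher. Over the 12 members measured in both comparisons, 9 were lower in all cells (median -0.28) and 8 higher outside both gates (median 0.15). Some of these 12, such as Arg1 and Rora, also passed outside both gates through E14.5 alone and so had to be higher there. The count and median over the 12 are therefore partly set by the minimum as well. The highest of this list outside both gates were 2 of the genes that passed through E14.5 alone, the arginase Arg1, at 3.26 and 29.8 CPM (2.07), and the chemokine receptor Cxcr6, at 1.38 and 16.7 CPM (1.76). Both were rare: Cxcr6 was detected in 0.624 and 2.62% of all thinned cells (1.05 and 3.55% unthinned) and in 0.071 and 0.628% of cells inside the B gate. Rora, a nuclear receptor needed for group 2 innate lymphoid cells, stood at 8.51 and 25.8 CPM outside both gates (1.19) and passed the minimum through E14.5 alone as well.

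The LTi and T lineage lists were compared in the same way. Lta, a lymphotoxin chain, stood at 7.60 and 24.5 CPM in all cells (1.23) and at 6.98 and 23.9 CPM outside both gates (1.27). It passed the 10 CPM minimum through E14.5 alone in both comparisons and so had to be higher. Of the measured LTi genes 8 of 9 were lower in all cells (median -0.43), and 7 of 10 were higher outside both gates (median 0.10), 2 of which passed the minimum through E14.5 alone. Over the 9 LTi genes measured in both comparisons, with Lta still among them, 6 were higher outside both gates. Their median was 0.04, close to that of all genes. On the T lineage list, 4 of 7 measured genes were lower in all cells and 7 of 8 higher outside both gates (median 0.63), 2 of them measured there through E14.5 alone. Over the 7 measured in both, 6 were higher outside both gates (median 0.55). Tcrg-C1, a constant region of the gamma T cell receptor, was not among these 7. It stood at 1.86 and 11.5 CPM outside both gates (1.27) and passed the minimum there through E14.5 alone. The other T lineage gene that passed there through E14.5 alone was among the 7 and so had to be higher.

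Inside the B gate, 1402 cells at E13.5 and 6213 at E14.5, 61 genes were at least 2-fold higher (0.794%) and 74 at least 2-fold lower (0.964%) of 7680. The gate genes set who is inside, so their own values here are a description of the cells chosen. Lef1 stood at 5.86 and 80.7 CPM (2.98) and the phosphatase Alpl at 1.84 and 51.2 CPM (3.04). Neither gene was used for the gate, and outside it both stayed under 2 CPM at either stage. Progenitor genes were lower inside the gate, with Cd34 at 265 and 82.5 CPM (-1.63), Flt3 at 212 and 91.7 CPM (-1.16) and the fetal chromatin protein Hmga2 at 729 and 307 CPM (-1.24). The chemokine receptor Ccr9 stood at 107 and 43.5 CPM (-1.21). Rag1, a subunit of the recombinase that joins antigen receptor segments, had opposite signs: 9.75 and 28.1 CPM in all cells (1.17), but 60.3 and 45.5 CPM inside the gate (-0.37). Il7r did the same, with a log2 fold of 0.32 in all cells and 275 and 210.3 CPM inside the gate (-0.38). Since gate cells at E13.5 held fewer UMIs of the gate genes, the stage comparison inside the gate also compares different ranges of that sum.

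Granule genes of the neutrophil path were mixed. Mpo, the myeloperoxidase gene, stood at 829 and 459 CPM in all cells (-0.85) and was detected in 59.2 and 37.6% of thinned cells (72.2 and 48.1% unthinned), against 48.5 and 21.95% of cells inside the B gate. Outside the B gate it stood at 891 and 833 CPM (-0.10). Elane, which encodes neutrophil elastase, was at 53.0 and 70.7 CPM in all cells (0.38) and at 45.1 and 117 CPM outside both gates (1.28). Elane positive cells were fewer but held more of it, with 2.75 and 2.26% of thinned cells (4.45 and 4.02% unthinned) and 10.0 and 15.6 UMIs per positive cell, against 0.642 and 1.30% of B-gate cells with a UMI. A gate of 3 or more UMIs of Elane, Prtn3, Ctsg and Mpo held 44.8% of cells at E13.5 (43.8 to 45.8) and 26.6% at E14.5 (25.8 to 27.5).

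The lists that follow had medians between -0.49 and 0.16 in all cells, and few of their genes were past 2-fold. Among S phase genes 16 of 20 were higher in all cells, with a median of 0.16 and none past 2-fold, and the G2 and M phase list had a median of 0.01. Class I presentation genes had a median of 0.05 in all cells and 0.32 outside both gates, where 10 of 11 were higher and none past 2-fold. Genes of IL-7 receptor signalling had a median of 0.12, with Socs2, a feedback inhibitor, at 7.09 and 32.8 CPM (1.64) as the sole member past 2-fold. Cytokine and growth factor receptors had 7 of 10 measured genes lower (median -0.49), homing receptors and integrins 9 of 13 (median -0.27) and the fetal program and imprinted genes 9 of 10 (median -0.34). Outside both gates, 8 of the same 13 homing genes were higher (median 0.09). There the same receptor genes had 8 of 10 lower (median -0.17), and the same fetal program and imprinted genes 8 of 10 (median -0.13). In the last list H19, an imprinted RNA, was the exception in all cells, at 26.5 and 72.3 CPM (1.30), and stood at 0.10 outside both gates.

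**Figure D5:**
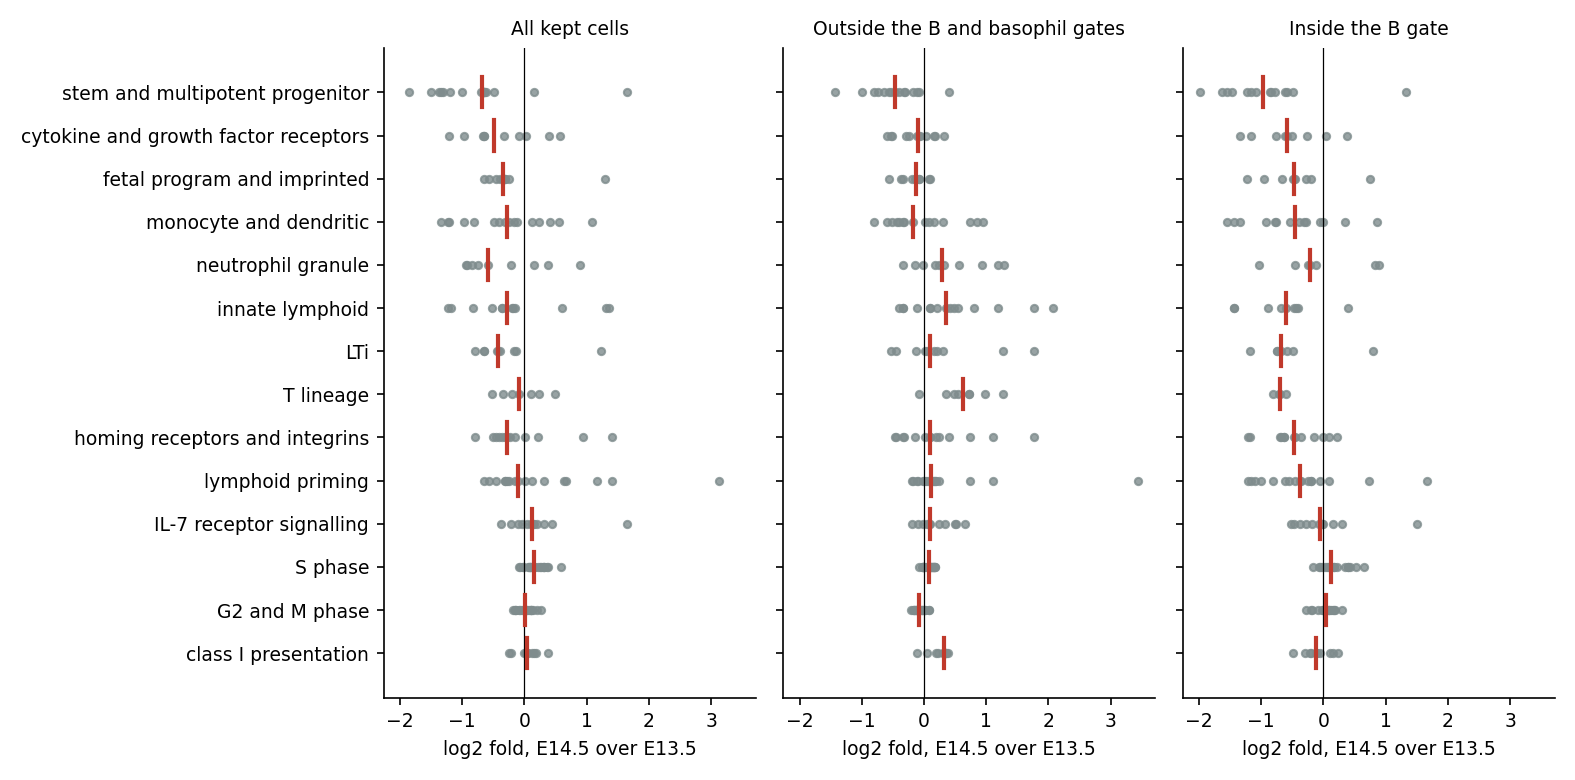
Log2 fold, E14.5 over E13.5, of each measured gene (grey points) of 14 gene lists, with the list median as a red bar, in all kept cells, in cells outside the B and basophil gates and in cells inside the B gate. The innate lymphoid median is -0.28 over 12 genes in all cells and 0.35 over 15 genes outside both gates. Of these 15, 5 were measured through E14.5 alone, and over the 12 measured in both the median outside both gates is 0.15. Some of the 12, such as Arg1 and Rora, were also measured outside both gates through E14.5 alone. The median of the stem and multipotent progenitor list is below 0 in every panel.

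The X-inactivation transcript Xist, found in female cells, also differed between the libraries, at 90.2 CPM (88.9 to 91.5) and 185 CPM (183 to 187), a log2 fold of 0.999. It was detected in 18.3 and 37.2% of thinned cells (23.5 and 43.1% unthinned). The Y-linked Ddx3y stood at 36.3 and 24.8 CPM (-0.47), and Eif2s3y, Kdm5d and Uty at -0.44, -0.42 and -0.32. Xist had a similar fold inside the B gate (1.09) and outside both gates (1.01). Its part in the differences of other genes was not tested.

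In the embryonic periphery, compared between the same stages with the earlier kit, 235 of 7246 measured genes were at least 2-fold higher (3.24%) and 107 lower (1.48%). Of the 100 genes higher in liver, 80 were measured there, with 13 past 2-fold in the same direction and 1 in the other. Of the 26 genes lower in liver, 17 were measured, with 6 past 2-fold in the same direction and 1 in the other. Igll1 stood at 153 and 348 CPM in periphery (1.16), and Cd34 at 97.8 and 22.04 CPM (-1.93). The difference between the tissues was not tested, and tissue and kit cannot be told apart.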

How the data were processed

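The deposited matrices hold raw UMI counts per gene and barcode, which the authors made with Cell Ranger version 3 on mm10, per the submitters' processing notes; the file headers of the liver matrices name version 3.0.0 and those of the periphery 3.0.1. The sources used here do not name the gene model release. Coordinates come from GENCODE M21 on GRCm38.

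Cell filters were as stated above; 58 and 90 liver barcodes fell below the gene minimum and 84 and 298 above the mitochondrial limit at E13.5 and E14.5. Counts were summed per library and scaled to CPM, and log2 folds were taken after adding 5 CPM. Genes counted as measured from 10 CPM upward in at least 1 of the libraries, and as called from 2-fold. Cells were thinned to 5000 UMIs without replacement (seed 1), and shares of cells carry exact Clopper-Pearson and CPM values exact Poisson intervals at 95%, which cover counting error only. Basophil-type cells are those inside the basophil gate and outside the B gate. Doublets were kept in the main values; Scrublet in scanpy 1.11.5 marked 418 (3.93%) and 869 (7.43%) barcodes, which were left out as an alternative. Computation used numpy 2.4.6, scipy 1.17.1 and pandas 2.3.3, and the fold and split functions were tested on simulated counts.

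With 1 library per stage no test was made and cells were not used as replicates. Genes were named by rank: the 15 highest and 15 lowest folds in all cells, the 10 highest and lowest outside and the 8 highest and lowest inside the B gate, the 5 largest rises and falls in level per positive cell, and members of 30 gene lists. Trimmed from the ranks were unnamed gene models and, by gate, the gate's own genes. Ccnd3, named with the split, was chosen after its values were seen. The samples compared, the gene lists and their members were chosen with earlier results of these data known. Alternatives covered the added CPM, the scale, cell weights, cell filters, doublets, the level minimum, the gate limit and the thinning depth. Some members of the gene lists are counted in the list totals, and their own values are not reported here.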

Additional observations from a re-analysis of the deposited data

Results flagged for a closer look

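Id2 and Ly6d went opposite ways in the tissues, which is why they are listed here. Id2 had a log2 fold of -1.23 between E13.5 and E14.5 in fetal liver and of 1.90 in the embryonic periphery. Ly6d had a log2 fold of 3.13 in fetal liver and of -2.19 in periphery, where it stood at 179 and 35.4 CPM. Each fold rests on 1 library per stage, the tissues differ in kit version, and the difference between them was not tested.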

How the results depend on the processing

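No paired analysis was possible because each stage has 1 library and no result comes from a test. Under the alternatives run, no fold or list median past 2-fold reversed. The counts of genes past 2-fold moved with several settings. In all cells, 64 genes were lower with 1 CPM added and 15 with 10 CPM, and a minimum of 50 CPM left 54 higher and 12 lower. Outside the B gate, 11 were lower with 1 CPM added and 1 with 10 CPM, a minimum of 50 CPM left 33 higher and 2 lower, and equal weight for each cell gave 163 higher. Outside both gates, adding 1 CPM gave 35 higher and 11 lower, adding 10 CPM 11 higher and 1 lower, equal cell weight 45 higher, the stricter cell filter (1000 genes, 5% mitochondrial UMIs at most) 40 higher, and a minimum of 50 CPM 5 higher and 1 lower.

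Gate shares moved with the limit and the depth, and E14.5 stayed above E13.5 for the B and basophil gates and below it for the granule gate in every setting run. With a limit of 1 UMI the B gate held 49.5 and 80.4% of cells, the basophil gate 7.18 and 13.4% and the granule gate 68.4 and 45.9%. With 6 UMIs these were 6.34 and 47.3%, 1.95 and 7.63%, and 27.4 and 15.6%. Thinning to 2000 UMIs gave 6.33 and 46.8%, 1.96 and 7.63%, and 23.9 and 14.4%, and thinning to 10000 gave 24.4 and 68.0%, 4.16 and 7.57%, and 60.1 and 37.3%. With the stricter cell filter the shares were 7.63 and 56.3%, 3.71 and 8.48%, and 49.9 and 27.4%, and without marked doublets the E14.5 shares were 55.1, 6.98 and 25.8%. Of 29 list medians, 2 changed sign with equal cell weight (T lineage and erythroid), 4 with the stricter cell filter, among them T lineage and the G2 and M phase list, and 6 with a minimum of 1 CPM, among them T lineage and erythroid. With a minimum of 50 CPM 2 of 27 did. None of these was past 2-fold. Of 68 named genes past 2-fold, 52 remained so with 10 CPM added and all 68 with 1 CPM. Genes under about 10 CPM, such as Cxcr6 and Dntt, are limited by counting depth, and no alternative replaces replicate libraries.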
